A study of Mus musculus with 15 samples.

Results

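Leukemia stem cells (LSC) from gonadal adipose tissue (AT) of mice with blast-crisis chronic myeloid leukemia were compared by RNA-seq with their normal counterparts from normal bone marrow (NBM). Except where stated, the genes described are those of the authors' AT against NBM comparison with a level of 1 FPKM or more in either group, which held for 8831 of the 23359 genes in the table. FPKM is the number of sequenced fragments per kilobase of gene, scaled to the depth of the library. Of the 8831 genes, 6915 reached 1 FPKM in both groups, 607 in AT LSC only and 1309 in NBM only. The table held 303 genes between 0.9 and 1 FPKM just outside this limit and 250 between 1 and 1.1 FPKM just inside it.

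The AT LSC came from gonadal fat of mice 12 days after they received leukemia cells, in a mouse leukemia driven by the human oncogenes BCR-ABL and NUP98-HOXA9, and the NBM cells were labelled as the LSC counterparts of normal marrow. All samples were labelled female and 3 months old, and the labels repeat the leukemia strain and the transplantation text for NBM too. Leukemia cells of bone marrow (BM), spleen (SPL) and blood (BL) were also sequenced, giving 15 libraries in 5 groups of 3. The sort gate, the donor strain of the normal cells and the promoter behind the oncogenes are not in the labels. Nor do these tell whether the libraries within a group stem from different animals, so p-values measure the spread between libraries, which may be technical.

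BCR-ABL is a constantly active tyrosine kinase that signals through JAK-STAT, RAS and PI3K, and NUP98-HOXA9 is a fusion transcription factor that keeps HOXA programs on in myeloid cells. Blast crisis is the stage of chronic myeloid leukemia in which immature cells accumulate. White fat stores triglyceride and releases fatty acids by lipolysis, and it is a source of cytokines when inflamed. Hematopoietic stem and progenitor cells carry receptors such as KIT, FLT3 and CD34, and marrow also makes lymphoid, dendritic and erythroid cells.

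The deposited files hold 1 pooled FPKM per gene and group, with bounds 2 SD away, so no value of a single library can be shown. Folds are log2 of AT LSC over NBM from the authors' deposited table, ± is a standard error obtained as the fold over its test statistic, and a gene was called where it had been tested and its q-value lay below 0.05. The pooled columns held 1.96e+07 estimated counts for AT LSC and 1.95e+07 for NBM. For the other LSC they held 1.65e+07 in BM, 8.96e+06 in SPL and 1.95e+07 in BL, so SPL comparisons rest on fewer counts. A level of 1 FPKM was reached by 7522 genes in AT LSC and 8224 in NBM. The 10 highest entries took 21.4% of the summed FPKM in AT LSC and 11.3% in NBM. Over all tested genes the median fold was -0.46, so a list of genes is read against that value, and each count of called members is followed by the count after the folds were centred on their median. In pooled bulk RNA, fewer cells of a type and less RNA per cell cannot be told apart. Transcripts of the Y chromosome were present in all 5 groups although every sample was labelled female. The 5 Y-linked genes checked summed to 8.79 FPKM in AT LSC and 14.9 FPKM in NBM, and none of the 4 tested was called.

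Of 13346 tested genes the authors' deposited table puts 23.4% at q below 0.05, with 1060 (7.94%) higher and 2067 (15.5%) lower in AT LSC than in NBM. After centring, the same counts were 1650 (12.4%) higher and 876 (6.56%) lower, so the balance of the directions depends on how the groups are scaled. Among the genes with 1 FPKM or more in either group, 8704 were tested, 26.3% were called, 637 (7.32%) were higher and 1652 (19.0%) were lower. Another 127 of them were not tested. Counts and medians of gene lists run over every tested member, whatever its level, to match the shares over all tested genes, and where calls lie below 1 FPKM in both groups the count of those at 1 FPKM or more is added. Of the genes named, Pdk4, Il12b, Cd163, Timd4, Adipoq and Plin1 lie below 1 FPKM in both groups. The higher genes had a median absolute log2 fold of 2.11 and the lower genes one of 1.62. Differences of 4 log2 units or more were called for 87 genes higher and 75 lower. The smallest absolute fold called was 1.06, and no smaller difference was called.

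**Figure D1:**
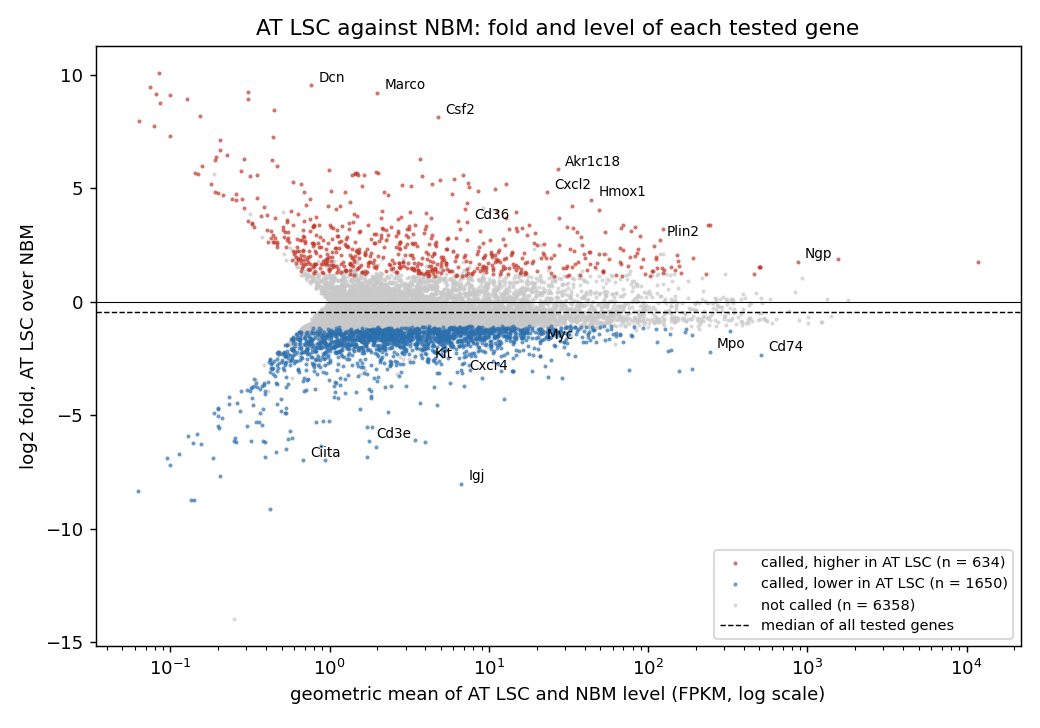
Each point is a tested gene with 1 FPKM or more in either group and a finite fold. The x axis is the geometric mean of its AT LSC and NBM level in FPKM on a log scale, and the y axis the log2 fold of AT LSC over NBM. Red points (634) were called higher, blue points (1650) lower and grey points were not called, and the dashed line is the median of all tested genes, at -0.46. Of the labelled genes, Dcn, Marco and Csf2 stand at the top, and Igj and Ciita at the bottom. Dntt, neither labelled nor called, lies below them at -13.98.

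The promoters of 5 genes are shown because the genes stand at the opposite ends of the comparison. Csf2, Cxcl1 and Il6 were the called cytokine, chemokine and NF-kB genes with the largest positive folds, and Cd27 and Flt3 were the called stem and progenitor genes with the largest negative folds among those with a promoter in the RefSeq table used here. Each sequence runs 5′ to 3′ over 300 bases, from 250 before to 50 after the gene start that RefSeq gives on GRCm38.p6, the assembly that mm10 names. The windows are chr11:54249850-54250149 (minus strand) for Csf2, chr5:90890995-90891294 (plus strand) for Cxcl1, chr5:30012864-30013163 (plus strand) for Il6, chr6:125236978-125237277 (minus strand) for Cd27 and chr5:147400440-147400739 (minus strand) for Flt3. Capitals mark matches, on either strand, to the letters GGNNTTTCC for NF-kB, TGANTCA for AP-1, AGATAA for GATA and TTGCNCAA for C/EBP factors.
Csf2: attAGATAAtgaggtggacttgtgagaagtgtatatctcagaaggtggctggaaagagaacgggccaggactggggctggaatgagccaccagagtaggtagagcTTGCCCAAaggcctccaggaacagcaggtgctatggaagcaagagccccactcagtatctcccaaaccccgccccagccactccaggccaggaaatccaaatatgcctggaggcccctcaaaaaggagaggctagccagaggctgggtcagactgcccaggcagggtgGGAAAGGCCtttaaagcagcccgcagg
Cxcl1: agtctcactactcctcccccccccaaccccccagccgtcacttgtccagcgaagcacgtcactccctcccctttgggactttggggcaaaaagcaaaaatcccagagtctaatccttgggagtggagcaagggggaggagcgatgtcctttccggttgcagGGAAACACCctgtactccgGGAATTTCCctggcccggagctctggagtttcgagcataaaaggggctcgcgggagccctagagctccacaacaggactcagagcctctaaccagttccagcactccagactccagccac
Il6: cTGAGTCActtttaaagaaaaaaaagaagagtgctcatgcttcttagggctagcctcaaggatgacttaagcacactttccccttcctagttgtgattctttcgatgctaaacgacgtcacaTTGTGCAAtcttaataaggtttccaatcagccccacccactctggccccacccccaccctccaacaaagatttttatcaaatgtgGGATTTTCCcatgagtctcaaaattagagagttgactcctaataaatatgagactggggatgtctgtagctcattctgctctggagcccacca
Cd27: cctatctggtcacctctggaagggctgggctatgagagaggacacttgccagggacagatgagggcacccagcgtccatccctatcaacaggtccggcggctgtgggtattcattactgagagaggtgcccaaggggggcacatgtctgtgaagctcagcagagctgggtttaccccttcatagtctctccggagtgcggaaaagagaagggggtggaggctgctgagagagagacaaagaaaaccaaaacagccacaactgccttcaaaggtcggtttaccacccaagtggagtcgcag
Flt3: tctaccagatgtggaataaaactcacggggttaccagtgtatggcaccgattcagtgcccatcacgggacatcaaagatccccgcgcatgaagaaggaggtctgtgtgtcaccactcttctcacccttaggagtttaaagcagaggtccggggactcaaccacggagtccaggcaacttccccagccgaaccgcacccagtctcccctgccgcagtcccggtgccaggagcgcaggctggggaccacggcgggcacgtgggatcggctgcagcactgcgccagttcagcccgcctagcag
The Cxcl1 window holds 2 matches to the NF-kB letters, and the Il6 window holds 1 each for NF-kB, AP-1 and C/EBP. Csf2 shows 1 match each for NF-kB, GATA and C/EBP. These lengths of the NF-kB and C/EBP letters were chosen after the windows had been read, and with a further G before the NF-kB letters, or an A before and a T after the C/EBP letters, Csf2 held 0 matches to either. GENCODE M21 places the Csf2 start 232 bases downstream of the RefSeq start, so this whole window lies upstream of that start. No match to any of the 4 motifs falls in the Cd27 or Flt3 windows. Over all 32851 promoter windows of the table, 5.82% hold the NF-kB letters, 7.81% the AP-1 letters, 11.2% the GATA letters and 2.94% the C/EBP letters. A match describes these letters and is not a measured site.

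Inflammatory cytokine transcripts were high in AT LSC and low in NBM. Of 17 tested cytokine genes, 11 were called higher and 2 lower (9 and 1 among the 13 with 1 FPKM or more in either group), and 13 were higher and 2 lower after centring, with a median log2 fold of 2.23 against -0.46 over all tested genes. Csf2 encodes GM-CSF, a growth factor of granulocytes and macrophages. It stood at 79.8 FPKM in AT LSC, with bounds of 30.7 and 128.9, against 0.286 FPKM in NBM, with bounds of 0.0637 and 0.509. The bounds do not overlap, and the fold was 8.12 ± 0.72 with q listed as 0 in the authors' deposited table. Il6, a fever and acute-phase cytokine, reached 61.0 FPKM in AT LSC and 1.95 FPKM in NBM, where the authors' deposited table lists 4.97 ± 0.54 as the fold and q as 0. Both interleukin 1 genes, which start local inflammation, were called higher. Il1b stood at 57.9 FPKM in AT LSC and 3.75 FPKM in NBM, with a fold of 3.95 ± 0.50 (q = 4.59e-13, authors' deposited table). Il1a stood at 6.11 FPKM in AT LSC and 0.293 FPKM in NBM, with a fold of 4.38 ± 0.58 (q = 4.41e-12, authors' deposited table). Tnf rose by less, to 7.86 FPKM in AT LSC against 2.15 FPKM in NBM, with a fold of 1.87 ± 0.49 (q = 0.00141, authors' deposited table). The 2 lower members were Il12a and Il12b, which encode the subunits of IL-12. Il12a, a subunit of the T-cell polarising cytokine IL-12, stood at 0.301 FPKM in AT LSC and 8.0 FPKM in NBM, with a fold of -4.73 ± 0.60 (q = 6.71e-13, authors' deposited table). Markers of stromal cells were also higher in AT LSC than in NBM. They summed to 149 FPKM in AT LSC and 32.3 FPKM in NBM. The sums were 118 FPKM in BM, 72.4 in SPL and 147 FPKM in BL LSC. Most of the AT LSC sum was Gsn, an actin-severing protein of many cells. The sums therefore cannot compare stromal RNA between the sites. The marker Dcn was highest in AT LSC, with its levels given below under connective tissue transcripts. The part of stromal cells in the cytokine result was not tested.

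The high level of several cytokines also separated AT LSC from the other leukemic sites. Csf2 was listed at 79.8 FPKM in AT, 6.0 FPKM in BM, 2.52 FPKM in SPL and 2.77 FPKM in BL LSC. The authors' deposited tables of AT LSC against each site gave Csf2 log2 folds of 3.73 over BM (q = 6.66e-11), 4.99 over SPL (q = 4.01e-12) and 4.85 over BL (q listed as 0). Il6 was listed at 61.0 FPKM in AT, 9.85 in BM, 3.89 in SPL and 11.5 FPKM in BL LSC, and the direct AT folds were 2.63 over BM (q = 2.95e-06), 3.97 over SPL (q = 1.32e-09) and 2.40 over BL (q = 9.49e-05) in the authors' deposited tables. These tables share the AT libraries, so they are 3 readings of the same AT value. Over the cytokine list, AT LSC were called higher for 8 and lower for 1 of 16 tested genes against BM LSC, higher for 9 and lower for 1 of 16 against SPL LSC, and higher for 6 and lower for 0 of 16 against BL LSC. All tested genes gave 7.18% higher and 15.5% lower against BM LSC, 6.84% higher and 17.8% lower, 25.1% in all, against SPL LSC, and 3.96% higher and 2.51% lower, 6.52% in all, against BL LSC. In every comparison other than AT LSC over NBM, called genes without a finite fold enter the total but neither direction.

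Chemokines went both ways. Of 15 tested, 8 were called higher and 4 lower in AT LSC, with the same counts after centring and a median fold of 1.41. The neutrophil attractants Cxcl1, Cxcl2 and Cxcl3, neighbours on chromosome 5, were among the higher ones. Cxcl2 stood at 123.1 FPKM in AT LSC and 4.35 FPKM in NBM, with a fold of 4.82 ± 0.51 and q listed as 0 in the authors' deposited table. Cxcl1 stood at 9.36 FPKM in AT LSC and 0.272 FPKM in NBM, with a fold of 5.11 ± 0.63 (q = 1.04e-13, authors' deposited table). The monocyte attractant Ccl6 reached 378 FPKM in AT LSC and 40.8 FPKM in NBM, with a fold of 3.21 ± 0.49 (q = 3.05e-09, authors' deposited table). Ccl22, a dendritic cell product that attracts T cells, was 1 of the 4 lower members, at 0.105 FPKM in AT LSC and 2.70 FPKM in NBM. Its fold was -4.68 ± 0.75 (q = 2.54e-08, authors' deposited table). In the other LSC, Cxcl2 was listed at 8.64 FPKM in BM, 4.92 in SPL and 13.4 FPKM in BL, and AT LSC were higher than each of them in the authors' deposited tables (q = 5.49e-14, 1.51e-10 and 2.30e-09).

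Of 25 tested cytokine receptors, 7 were called, 1 higher and 6 lower in AT LSC, where 23.4% of all tested genes were called, but 5 were higher and 2 lower after centring, so the direction of this list flips with the scaling. Cxcr4, the receptor for the marrow retention factor CXCL12, stood at 2.26 FPKM in AT LSC, with bounds of 1.08 and 3.45, and at 20.2 FPKM in NBM, with bounds of 14.4 and 25.9. Its fold of -3.16 ± 0.43 (q = 2.86e-11, authors' deposited table) kept its call after centring. Cxcr4 was also low in the other leukemic groups, at 1.98 FPKM in BM, 2.93 in SPL and 1.99 FPKM in BL LSC, and no direct comparison with AT LSC was called in the authors' deposited tables, where q was 0.856, 0.739 and 0.869. The lymphocyte receptor Cxcr3 stood at 0.146 FPKM in AT LSC and 5.65 FPKM in NBM, with a fold of -5.28 ± 0.71 (q = 1.29e-11, authors' deposited table).

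NF-kB is the transcription factor family that many of these cytokine genes respond to, and its own feedback inhibitors are among its targets. Of 20 tested genes of the NF-kB list, 6 were called higher and 0 lower (8 and 0 after centring), with a median fold of 0.39. The prostaglandin synthase gene Ptgs2 stood at 9.41 FPKM in AT LSC and 0.761 FPKM in NBM, with a fold of 3.63 ± 0.58 (q = 1.96e-08, authors' deposited table). Nfkbia, which encodes the inhibitor that holds NF-kB in the cytoplasm, stood at 123.8 FPKM in AT LSC and 36.3 FPKM in NBM, with a fold of 1.77 ± 0.54 (q = 0.00859, authors' deposited table). The inhibitor-like gene Nfkbiz stood at 5.59 FPKM in AT LSC and 1.71 FPKM in NBM, with a fold of 1.71 ± 0.48 (q = 0.00337, authors' deposited table). Against NBM, the same list gave 2 called higher and 8 lower of 20 in BM LSC, and 0 higher and 6 lower of 20 in SPL LSC, with backgrounds of 8.08% higher and 7.78% lower for BM and 6.35% and 5.94% for SPL. In BL LSC the list gave 3 higher and 1 lower of 20 over NBM, with backgrounds of 11.3% and 22.8%, and its median fold of 0.38 lay near the 0.39 of AT LSC. In the direct comparison with BL LSC, 5 of 20 were called higher in AT LSC and 0 lower, with backgrounds of 3.96% and 2.51%. The median fold there was 0.53 against -0.11 over all tested genes. Against BM LSC, 14 were higher and 0 lower of 20, with backgrounds of 7.18% and 15.5%. Against SPL LSC, 13 were higher and 0 lower of 20, with backgrounds of 6.84% and 17.8%. The comparisons over NBM share the NBM libraries, and the direct ones share the AT libraries.

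Genes of innate sensing, the receptors that detect microbes and tissue damage, gave 10 higher and 0 lower of 20 tested (10 and 0 after centring), with a median fold of 1.24. Cd14, the co-receptor for bacterial lipopolysaccharide, stood at 211 FPKM in AT LSC and 21.9 FPKM in NBM, with a fold of 3.26 ± 0.50 (q = 7.11e-09, authors' deposited table). Clec4e, a lectin that recognises fungal and mycobacterial glycolipids, stood at 58.3 FPKM in AT LSC and 5.54 FPKM in NBM, with a fold of 3.39 ± 0.46 (q = 2.61e-11, authors' deposited table). Cd14 was listed at 191 FPKM in BL LSC, where the direct comparison with AT LSC was not called (q = 0.914, authors' deposited table), and stood at 8.81 FPKM in BM and 9.01 FPKM in SPL LSC. Among 21 tested immediate early genes, 9 were called higher and 1 lower (12 and 1 after centring), with a median fold of 1.19. Ier3, a stress-induced survival gene, stood at 193 FPKM in AT LSC and 38.4 FPKM in NBM, with a fold of 2.33 ± 0.47 (q = 1.49e-05, authors' deposited table). Fos, a subunit of AP-1, was the 1 lower member, at 62.0 FPKM in AT LSC and 209.6 FPKM in NBM, with a fold of -1.76 ± 0.45 (q = 0.00119, authors' deposited table).

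**Figure D2:**
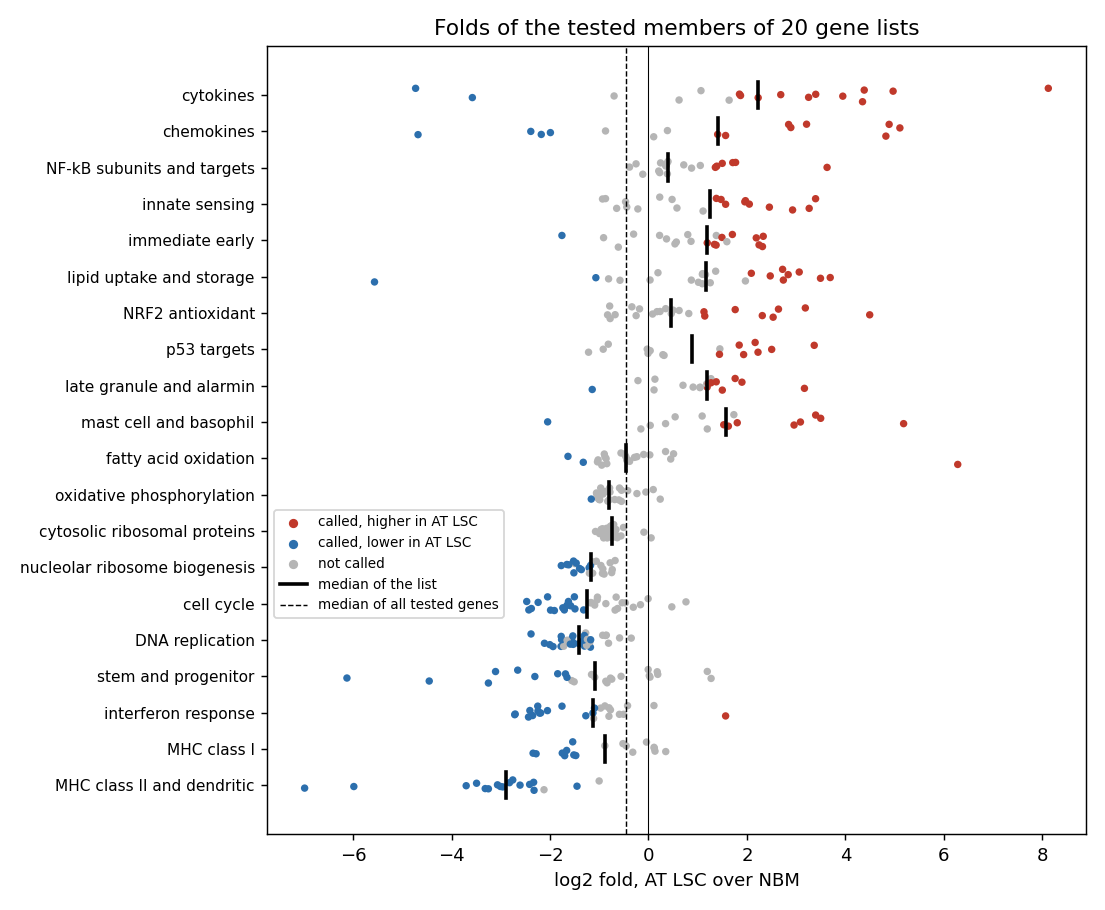
Each point is a tested member of 1 of 20 gene lists, placed by its log2 fold of AT LSC over NBM on the x axis, red where called higher, blue where called lower and grey where not called. Black bars are list medians, the dashed line is the median of all tested genes and points are spread vertically at random. The medians of cytokines (2.23) and mast cell and basophil genes (1.58) lie to the right, and those of DNA replication (-1.41) and MHC class II and dendritic genes (-2.89) to the left.

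The called lipid uptake and storage genes were mostly higher in AT LSC. Of 23 tested, 8 were called higher and 2 lower (8 and 1 among the 19 at 1 FPKM or more), and 15 were higher and 1 lower after centring, with a median fold of 1.16. Cd36, the scavenger receptor that takes up long-chain fatty acids (mm10 chr5:17781690-17888959), stood at 24.4 FPKM in AT LSC, with bounds of 9.18 and 39.5, and at 2.16 FPKM in NBM, with bounds of 1.23 and 3.10. Its fold was 3.50 ± 0.55 (q = 1.15e-08, authors' deposited table). Fabp4, a fatty acid carrier of adipocytes and macrophages, stood at 46.1 FPKM in AT LSC and 3.57 FPKM in NBM, with a fold of 3.69 ± 0.49 (q = 4.41e-12, authors' deposited table). Plin2, the coat protein of lipid droplets, reached 304 FPKM in AT LSC and 46.0 FPKM in NBM, with a fold of 2.73 ± 0.45 (q = 1.00e-07, authors' deposited table). Hilpda, which restrains triglyceride breakdown, stood at 104 FPKM in AT LSC and 12.4 FPKM in NBM, with a fold of 3.06 ± 0.50 (q = 4.59e-08, authors' deposited table). In the blood, Cd36 was listed at 41.3 FPKM, Fabp4 at 31.8 FPKM and Plin2 at 170 FPKM, and none of these 3 was called different from AT LSC (q = 0.385, 0.520 and 0.248, authors' deposited table). In BM LSC, Fabp4 stood at 3.45 FPKM and Plin2 at 40.8 FPKM, whereas Cd36 stood at 15.9 FPKM.

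Few genes that burn fatty acids were called, against 7.94% higher and 15.5% lower over all tested genes. Of 23 tested genes of fatty acid oxidation, 1 was called higher and 2 lower (1 and 1 after centring, 0 and 2 among the 21 at 1 FPKM or more), and the median fold of -0.46 was that of all tested genes. Cpt1a, the gate of mitochondrial fatty acid import, stood at 8.56 FPKM in AT LSC, with bounds of 4.18 and 12.9, and at 11.6 FPKM in NBM, with bounds of 8.42 and 14.8. It was not called, with a fold of -0.44 ± 0.42 (q = 0.536, authors' deposited table), and its sign turns after centring. Acadm, which starts beta-oxidation of medium chains, stood at 3.07 FPKM in AT LSC and 9.53 FPKM in NBM, with a fold of -1.64 ± 0.44 (q = 0.00219, authors' deposited table). Pdk4, the 1 higher member, blocks the use of glucose carbon in mitochondria and stood at 0.523 FPKM in AT LSC and 0.00672 FPKM in NBM, below 1 FPKM in both. Among 22 tested genes of sterol and fatty acid synthesis, 1 was higher and 5 lower, a balance that turns to 3 higher and 2 lower after centring. The fatty acid desaturase Scd2 kept its call, at 1.27 FPKM in AT LSC and 8.02 FPKM in NBM, with a fold of -2.65 ± 0.43 (q = 4.49e-08, authors' deposited table).

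Few central energy genes were called, against 7.94% higher and 15.5% lower over all tested genes. Glycolysis gave 2 higher and 0 lower of 19 tested (2 and 0 after centring, median -0.21): the glucose carrier Slc2a3 and the lactate exporter Slc16a3. Slc16a3 stood at 11.1 FPKM in AT LSC and 1.92 FPKM in NBM, with a fold of 2.54 ± 0.54 (q = 6.76e-05, authors' deposited table). Oxidative phosphorylation gave 0 higher and 1 lower of 26, and 0 and 0 after centring, with a median of -0.81. The 1 member was Ndufv2, a subunit of complex I, at 7.65 FPKM in AT LSC and 17.1 FPKM in NBM (fold -1.16 ± 0.43, q = 0.0343, authors' deposited table). Hypoxia genes gave 5 higher and 2 lower of 21 (6 and 1 after centring, 2 and 1 among the 15 at 1 FPKM or more, median 0.07). The oxygen sensor Egln1 was lower, at 0.447 FPKM in AT LSC and 1.81 FPKM in NBM, and Ero1l, an oxidase of protein folding, was higher, at 4.21 FPKM in AT LSC and 1.36 FPKM in NBM.

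Genes of the NRF2 antioxidant program gave 8 higher and 0 lower of 23 tested (8 and 0 after centring, 7 and 0 among the 20 at 1 FPKM or more), with a median fold of 0.46. Hmox1 encodes heme oxygenase, which breaks down heme and releases iron. It stood at 209 FPKM in AT LSC, with bounds of 75.8 and 342, and at 9.27 FPKM in NBM, with bounds of 6.16 and 12.4. The fold was 4.49 ± 0.52 with q listed as 0 in the authors' deposited table. Hmox1 was listed at 15.5 FPKM in BM, 15.8 in SPL and 69.0 FPKM in BL LSC, and the direct AT folds over BM and BL were 3.76 (q = 2.12e-11) and 1.6 (q = 0.0193) in the authors' deposited tables. Srxn1, which restores oxidised peroxiredoxins, stood at 2.84 FPKM in AT LSC and 0.456 FPKM in NBM, with a fold of 2.64 ± 0.52 (q = 1.27e-05, authors' deposited table). Iron genes gave 4 higher and 2 lower of 18 (5 and 0 after centring, 3 and 2 among the 17 at 1 FPKM or more, median 0.18). Ftl1, the ferritin light chain that stores iron, was among the 10 highest entries of AT LSC, at 2987 FPKM in AT LSC and 813 FPKM in NBM, with a fold of 1.88 ± 0.46 (q = 7.11e-04, authors' deposited table). Slc11a1, which pumps iron out of phagosomes, stood at 25.7 FPKM in AT LSC and 2.98 FPKM in NBM, with a fold of 3.11 ± 0.48 (q = 6.63e-09, authors' deposited table). Lysosome genes gave 4 higher and 1 lower of 25 (8 and 0 after centring, median 0.30). All tested genes gave 23.4% called, 7.94% higher and 15.5% lower. The lysosomal protease gene Ctsd stood at 373 FPKM in AT LSC and 98.9 FPKM in NBM.

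**Figure D3:**
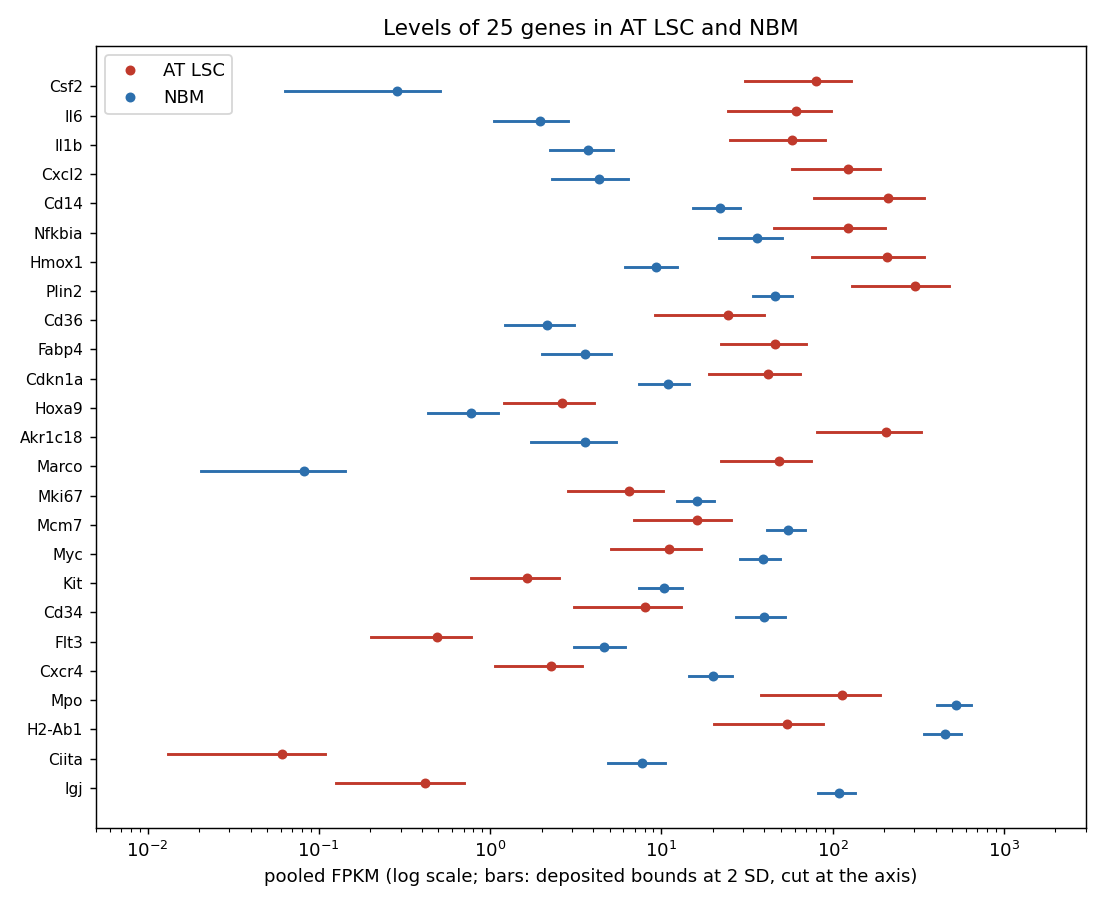
Pooled FPKM of 25 genes on a log axis, AT LSC in red above NBM in blue for each gene; bars are the deposited bounds at 2 SD. Csf2, at 79.8 FPKM in AT LSC and 0.286 FPKM in NBM, and Igj, at 0.417 FPKM in AT LSC and 109 FPKM in NBM, lie far apart in opposite directions.

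Many proliferation genes were called lower in AT LSC than in NBM. Of 32 tested cell cycle genes, 0 were called higher and 16 lower (1 and 10 after centring), with a median fold of -1.25. Top2a, the topoisomerase of dividing cells, stood at 11.4 FPKM in AT LSC and 38.1 FPKM in NBM, with a fold of -1.74 ± 0.44 (q = 0.00109, authors' deposited table). Plk1, a mitotic kinase, stood at 4.29 FPKM in AT LSC and 17 FPKM in NBM, with a fold of -1.99 ± 0.44 (q = 1.39e-04, authors' deposited table). Mki67, the Ki-67 proliferation antigen, stood at 6.51 FPKM in AT LSC, with bounds of 2.86 and 10.2, and at 16.2 FPKM in NBM, with bounds of 12.3 and 20.2. Its fold of -1.32 ± 0.44 (q = 0.0179, authors' deposited table) lost its call after centring. Among 31 tested DNA replication genes, 0 were called higher and 19 lower (0 and 6 after centring), with a median of -1.41. Tk1, which salvages thymidine, stood at 5.25 FPKM in AT LSC and 27.4 FPKM in NBM, with a fold of -2.39 ± 0.48 (q = 1.40e-05, authors' deposited table). Mcm10, an initiator of replication forks, stood at 1.58 FPKM in AT LSC and 6.82 FPKM in NBM, with a fold of -2.11 ± 0.47 (q = 1.37e-04, authors' deposited table).

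Among the leukemic groups, AT LSC stood between blood and the other sites for Top2a. It was listed at 32.7 FPKM in BM, 38.5 in SPL and 4.21 FPKM in BL LSC, beside 11.4 FPKM in AT LSC. In the authors' deposited tables, AT LSC were lower than BM LSC (log2 fold -1.52, q = 0.00881) and higher than BL LSC (1.44, q = 0.0227) for Top2a. Over the cell cycle list, AT LSC were called higher for 1 and lower for 14 of 32 against BM LSC, and higher for 15 and lower for 0 of 32 against BL LSC. All tested genes gave 7.18% higher and 15.5% lower against BM LSC, and 3.96% higher and 2.51% lower against BL LSC. Against NBM, BL LSC were called higher for 1 and lower for 25 of 32, where 34.4% of all tested genes were called, 11.3% higher and 22.8% lower.

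Genes that slow the cell cycle gave 7 higher and 1 lower of 17 tested (8 and 0 after centring, 6 and 1 among the 14 at 1 FPKM or more), with a median fold of 0.53. Cdkn1a, the p21 inhibitor of cyclin-dependent kinases, stood at 41.8 FPKM in AT LSC and 10.9 FPKM in NBM, with a fold of 1.93 ± 0.46 (q = 3.68e-04, authors' deposited table). The antiproliferative gene Gadd45g stood at 13.4 FPKM in AT LSC and 3.90 FPKM in NBM. Targets of p53, the tumor suppressor that halts damaged cells, gave 7 higher and 0 lower of 16 (7 and 0 after centring, 6 and 0 among the 11 at 1 FPKM or more), with a median of 0.88. Mdm2, which encodes the p53 antagonist, stood at 12.8 FPKM in AT LSC and 2.74 FPKM in NBM, with a fold of 2.23 ± 0.48 (q = 8.31e-05, authors' deposited table). Shares over all tested genes were 7.94% higher and 15.5% lower, 23.4% in all. The BCL2 family gave 3 higher and 1 lower of 20 (4 and 1 after centring, 2 and 1 among the 17 at 1 FPKM or more, median 0.11). Its lower member was Bid, a promoter of cell death, at 5.12 FPKM in AT LSC and 22.8 FPKM in NBM, with a fold of -2.15 ± 0.41 (q = 5.04e-06, authors' deposited table).

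Growth machinery was called lower or not called, and most nucleolar calls were lost after centring. Nucleolar genes of ribosome assembly gave 0 higher and 10 lower of 24 tested (0 and 2 after centring), with a median fold of -1.17. Of all tested genes 15.5% were called lower, and 6.56% after centring, so the nucleolar count depends on the scaling. Polr1b, a subunit of RNA polymerase I, stood at 2.12 FPKM in AT LSC and 7.23 FPKM in NBM, with a fold of -1.77 ± 0.46 (q = 0.00140, authors' deposited table). Cytosolic ribosomal proteins (28 tested, median -0.74) and proteasome subunits (23 tested, median -0.66) gave no call in either direction, before or after centring. Myc, the growth transcription factor, stood at 11.1 FPKM in AT LSC, with bounds of 5.07 and 17.1, and at 39.2 FPKM in NBM, with bounds of 28.9 and 49.6. Its fold was -1.82 ± 0.44 (q = 4.19e-04, authors' deposited table). Mxd1, which encodes a rival of MYC for the partner MAX, went the opposite way, at 9.55 FPKM in AT LSC and 1.04 FPKM in NBM, with a fold of 3.20 ± 0.47 (q = 9.79e-10, authors' deposited table). The MYC and MAX list gave 2 higher and 1 lower of 10 (4 and 1 after centring, 1 and 1 among the 7 at 1 FPKM or more, median 0.14). Among 20 tested heat shock genes, 0 were called higher and 2 lower (0 and 0 after centring, median -0.77), both of them the mitochondrial chaperonins Hspd1 and Hspe1. Chromatin writers gave 0 higher and 4 lower of 19 (0 and 3 after centring, 0 and 2 among the 11 at 1 FPKM or more, median -0.91), with the DNA methylation reader Uhrf1 at 7.78 FPKM in AT LSC and 26.4 FPKM in NBM.

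Several stem and progenitor genes were lower in AT LSC than in NBM. Of 25 tested genes, 0 were called higher and 9 lower (2 and 6 after centring, 0 and 7 among the 16 at 1 FPKM or more), with a median fold of -1.09. Kit, the stem cell factor receptor, stood at 1.64 FPKM in AT LSC, with bounds of 0.772 and 2.52, and at 10.4 FPKM in NBM, with bounds of 7.43 and 13.3. Its fold was -2.66 ± 0.43 (q = 5.00e-08, authors' deposited table). Cd34, a sialomucin of progenitors, stood at 8.07 FPKM in AT LSC and 40.0 FPKM in NBM, with a fold of -2.31 ± 0.50 (q = 8.43e-05, authors' deposited table). Flt3, a receptor of lymphoid and dendritic progenitors, stood at 0.487 FPKM in AT LSC and 4.64 FPKM in NBM, with a fold of -3.25 ± 0.49 (q = 1.80e-09, authors' deposited table). Ly6a, which encodes the Sca-1 antigen, was not called, at 109 FPKM in AT LSC and 199 FPKM in NBM (fold -0.87 ± 0.44, q = 0.154, authors' deposited table). Kit and Cd34, defining genes of stem and progenitor cells, were above 1 FPKM in AT LSC and lower there than in NBM.

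HOXA genes and their partners bear on the label, because the NUP98-HOXA9 fusion carries a part of HOXA9. Of 13 tested, 2 were called higher and 0 lower (3 and 0 after centring), with a median fold of 0.77. All tested genes gave 7.94% higher and 15.5% lower. Hoxa9 stood at 2.63 FPKM in AT LSC, with bounds of 1.20 and 4.06, and at 0.771 FPKM in NBM, with bounds of 0.434 and 1.11, with a fold of 1.77 ± 0.50 (q = 0.00401, authors' deposited table). Pbx3, a DNA-binding partner of HOX proteins, stood at 3.83 FPKM in AT LSC and 0.379 FPKM in NBM, with a fold of 3.33 ± 0.55 (q = 8.43e-08, authors' deposited table). Hoxa9 was listed between 2.03 and 3.65 FPKM in the 3 other leukemic groups. The files do not say whether reads of the human fusion were counted on the mouse gene. Meis1, another partner, was not called, at 3.21 FPKM in AT LSC and 6.65 FPKM in NBM (fold -1.05 ± 0.51, q = 0.130, authors' deposited table).

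Genes of the BCR-ABL and JAK-STAT pathway gave 5 higher and 1 lower of 24 tested (9 and 0 after centring), with a median fold of 0.59. All tested genes gave 23.4% called, 7.94% higher and 15.5% lower. Cish, a STAT5-induced inhibitor of cytokine signalling, stood at 53.9 FPKM in AT LSC and 9.25 FPKM in NBM, with a fold of 2.54 ± 0.48 (q = 3.24e-06, authors' deposited table). Socs2, of the same inhibitor family, stood at 7.5 FPKM in AT LSC and 1.27 FPKM in NBM, with a fold of 2.56 ± 0.55 (q = 5.56e-05, authors' deposited table). Cish was high in every leukemic group, at 57.3 FPKM in BM, 34.6 in SPL and 69.0 FPKM in BL LSC. Among 18 tested integrated stress response genes, 4 were called higher and 3 lower (7 and 2 after centring, 4 and 2 among the 17 at 1 FPKM or more, median 0.69). Chac1, which breaks down glutathione, stood at 6.90 FPKM in AT LSC and 1.1 FPKM in NBM, and Phgdh, the first enzyme of serine synthesis, at 21.2 FPKM in AT LSC and 72.3 FPKM in NBM.

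Myeloid genes moved in both directions, where all tested genes gave 7.94% higher and 15.5% lower. Of 19 tested regulators of myeloid fate, 6 were called higher and 2 lower (7 and 2 after centring, 5 and 2 among the 13 at 1 FPKM or more), with a median fold of 0.60. Irf8, which directs monocyte and dendritic cell fate, stood at 0.838 FPKM in AT LSC and 10.9 FPKM in NBM, with a fold of -3.70 ± 0.47 (q = 5.02e-13, authors' deposited table). Cebpb, a factor of emergency granulopoiesis, stood at 1.92 FPKM in AT LSC and 0.316 FPKM in NBM, with a fold of 2.60 ± 0.58 (q = 1.53e-04, authors' deposited table). Primary granule genes, made by immature granulocytes, gave 1 higher and 1 lower of 12 (2 and 1 after centring, median -0.58). Mpo, the myeloperoxidase of these granules, stood at 113.5 FPKM in AT LSC, with bounds of 38.1 and 189, and at 524 FPKM in NBM, with bounds of 406 and 641. The fold was -2.21 ± 0.51 (q = 2.16e-04, authors' deposited table). Among 18 tested late granule and alarmin genes, 8 were called higher and 1 lower (13 and 0 after centring), with a median of 1.19. Ngp, a secondary granule protein, stood at 1605 FPKM in AT LSC and 474 FPKM in NBM, with a fold of 1.76 ± 0.49 (q = 0.00323, authors' deposited table). Markers of mature neutrophils summed to 2222 FPKM in AT LSC and 1174 FPKM in NBM, with 2 of 10 tested called higher and 1 lower. The median fold of these markers was 0.12, and S100a8, which was not called, made up most of both sums. The part of mature neutrophils in the granule results was not tested.

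Monocyte and macrophage genes gave 7 higher and 6 lower of 27 tested (8 and 4 after centring, 7 and 4 among the 22 at 1 FPKM or more), with a median fold of -0.03. Marco, a scavenger receptor of macrophages, was among the 12 largest positive folds named by size. It stood at 48.5 FPKM in AT LSC and 0.0817 FPKM in NBM. Its fold was 9.21 ± 0.67 with q listed as 0 in the authors' deposited table. In the other LSC, Marco was listed at 0.251 FPKM in BM, 1.1 in SPL and 6.72 FPKM in BL. Irg1, which makes itaconate in activated macrophages, stood at 8.62 FPKM in AT LSC and 0.536 FPKM in NBM, with a fold of 4.01 ± 0.52 (q = 2.14e-12, authors' deposited table), and at 0.333 to 0.450 FPKM in the 3 other leukemic groups. The F4/80 gene Emr1 stood at 46.0 FPKM in AT LSC and 4.84 FPKM in NBM, with a fold of 3.25 ± 0.48 (q = 9.63e-10, authors' deposited table). Among the 6 lower members was Mrc1, the mannose receptor of resident macrophages. Mrc1 stood at 0.321 FPKM in AT LSC and 2.84 FPKM in NBM, with a fold of -3.14 ± 0.50 (q = 2.15e-08, authors' deposited table). The macrophage markers Cd163 and Timd4 were at or below 0.1 FPKM in AT LSC. That marker list summed to 81.4 FPKM in AT LSC and 63.3 FPKM in NBM, with 1 called higher and 6 lower of 10 tested (1 and 4 among the 7 at 1 FPKM or more).

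Eicosanoid genes gave 6 higher and 2 lower of 16 tested (8 and 1 after centring), with a median fold of 0.99. Alox5, the first enzyme of leukotriene synthesis, stood at 65.8 FPKM in AT LSC and 11.7 FPKM in NBM, with a fold of 2.49 ± 0.51 (q = 2.67e-05, authors' deposited table). Among 16 tested mast cell and basophil genes, 8 were called higher and 1 lower (10 and 1 after centring, 7 and 1 among the 13 at 1 FPKM or more), with a median of 1.58. The mast cell protease gene Cma1 stood at 76.8 FPKM in AT LSC and 2.12 FPKM in NBM, with a fold of 5.18 ± 0.55 and q listed as 0 in the authors' deposited table. Hdc, which makes histamine, stood at 227.5 FPKM in AT LSC and 21.6 FPKM in NBM, with a fold of 3.40 ± 0.50 (q = 1.20e-09, authors' deposited table). In the other LSC, Cma1 was listed at 206 FPKM in BM, 70.8 in SPL and 188 FPKM in BL. Akr1c18, a steroid-inactivating reductase, stood at 205 FPKM in AT LSC and 3.59 FPKM in NBM (fold 5.84 ± 0.57, q listed as 0 in the authors' deposited table), and it was listed at 91.7 to 329.5 FPKM in the other LSC.

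Among 15 tested megakaryocyte genes, 5 were called higher and 1 lower (6 and 1 after centring, 4 and 1 among the 11 at 1 FPKM or more, median 0.11), with the thrombin receptor F2r at 8.10 FPKM in AT LSC and 1.40 FPKM in NBM. Among 14 tested erythroid genes, 0 were called higher and 1 lower with a median fold of 0.55, against the sign of the 1 call. After centring, 2 were called higher and 0 lower, and the median was 1.01. The calls therefore depend on the scaling, while the sign of the median does not change. The 1 called member, Hemgn, a nuclear protein of blood progenitors, stood at 0.427 FPKM in AT LSC and 1.31 FPKM in NBM, with a fold of -1.62 ± 0.54 (q = 0.0169, authors' deposited table). In adhesion and homing, 4 genes were called higher and 1 lower of 25 tested (7 and 1 after centring, median -0.04). All tested genes gave 23.4% called, 7.94% higher and 15.5% lower. The tetraspanin Cd9 stood at 151 FPKM in AT LSC and 29.2 FPKM in NBM. Among 10 tested drug efflux pumps, 1 was called higher and 0 lower (4 and 0 after centring, median 0.29), the cholesterol exporter Abcg1, at 31.6 FPKM in AT LSC and 8.28 FPKM in NBM.

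**Figure D4:**
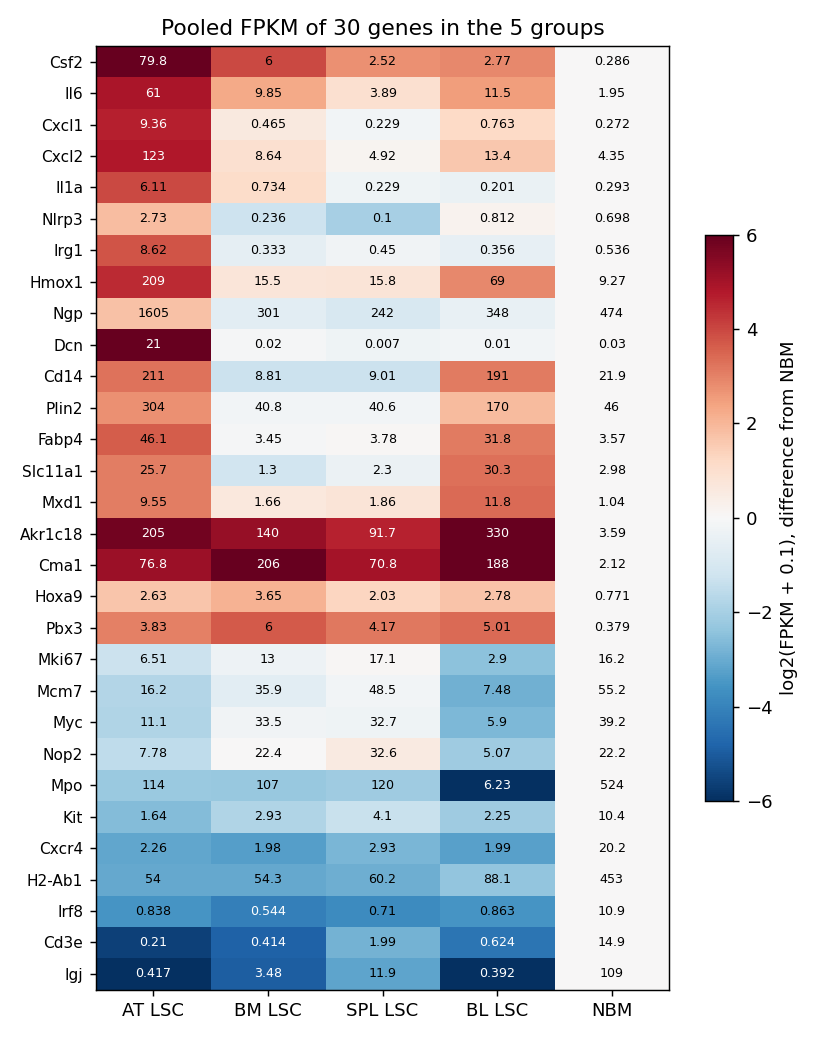
Pooled FPKM of 30 genes (rows) in AT, BM, SPL and BL LSC and in NBM (columns). Numbers are FPKM, and colors are the difference from NBM in log2(FPKM + 0.1), red above and blue below. Csf2, Il6, Cxcl1, Cxcl2, Irg1 and Dcn are highest in AT LSC, Cma1 and Akr1c18 are high in the 4 leukemic groups, and Kit, Cxcr4 and Igj are highest in NBM.

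Antigen presentation was lower in AT LSC than in NBM. Of 18 tested class II and dendritic genes, 0 were called higher and 16 lower (0 and 14 after centring, 0 and 14 among the 15 at 1 FPKM or more), with a median fold of -2.89. Ciita, the master regulator of class II genes, stood at 0.0608 FPKM in AT LSC, with bounds of 0.0132 and 0.108, and at 7.70 FPKM in NBM, with bounds of 4.86 and 10.5. The fold was -6.99 ± 0.62 with q listed as 0 in the authors' deposited table. H2-Ab1, a chain of the class II molecule, stood at 54.0 FPKM in AT LSC and 453 FPKM in NBM, with a fold of -3.07 ± 0.48 (q = 1.52e-08, authors' deposited table). The dendritic cell markers summed to 123 FPKM in AT LSC and 1001 FPKM in NBM, with 0 higher and 8 lower of 9 tested (0 and 6 among the 6 at 1 FPKM or more), and 4 of them stood at or below 0.1 FPKM in AT LSC. Siglech, a marker of plasmacytoid dendritic cells, stood at 0.588 FPKM in AT LSC and 6.62 FPKM in NBM. The part of such cells in the class II result was not tested. In the other leukemic groups H2-Ab1 was listed at 54.3 FPKM in BM, 60.2 in SPL and 88.1 FPKM in BL LSC, and no direct comparison with AT LSC was called (q = 0.998, 0.922 and 0.433, authors' deposited tables).

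Class I presentation gave 0 higher and 8 lower of 17 tested (0 and 5 after centring), with a median fold of -0.89. Psmb9, a subunit of the immunoproteasome, stood at 8.36 FPKM in AT LSC and 42.4 FPKM in NBM, with a fold of -2.34 ± 0.44 (q = 3.34e-06, authors' deposited table). The shared light chain B2m was not called, at 356 FPKM in AT LSC and 444 FPKM in NBM (fold -0.32 ± 0.44, q = 0.706, authors' deposited table), and its sign turns after centring. Among 25 tested interferon-induced genes, 1 was called higher and 14 lower (1 and 9 after centring, 1 and 13 among the 24 at 1 FPKM or more), with a median of -1.13. Gbp3, an interferon-induced GTPase, stood at 2.74 FPKM in AT LSC and 18 FPKM in NBM, with a fold of -2.72 ± 0.43 (q = 1.46e-08, authors' deposited table). The 1 higher member was Rsad2, an antiviral enzyme that makes a chain-terminating nucleotide, at 1.88 FPKM in AT LSC and 0.633 FPKM in NBM. For Gbp3, the other LSC were listed at 9.13 FPKM in BM, 13.9 in SPL and 7.08 FPKM in BL, and AT LSC were lower than each in the authors' deposited tables (q = 9.02e-04, 1.02e-04 and 0.0210).

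Lymphoid genes stood at the lower end of the comparison. Igj, the joining chain of antibodies, had the largest negative fold among the genes named by size, at 0.417 FPKM in AT LSC and 109 FPKM in NBM, with a fold of -8.03 ± 0.53 and q listed as 0 in the authors' deposited table. Igll1, the surrogate light chain of early B cells, stood at 0.214 FPKM in AT LSC and 18.1 FPKM in NBM. Cd3e, a chain of the T-cell receptor complex, stood at 0.210 FPKM in AT LSC and 14.9 FPKM in NBM, with a fold of -6.14 ± 0.68 and q listed as 0 in the authors' deposited table. Dntt, the enzyme of early lymphocytes that adds bases to receptor genes, had under 1 estimated count in AT LSC and was listed at 31.8 FPKM in NBM, but was not called (q = 0.0642, authors' deposited table). The B cell and plasma cell markers summed to 2.62 FPKM in AT LSC and 150 FPKM in NBM, with 8 of 10 tested called lower and 0 higher (6 and 0 among the 6 at 1 FPKM or more). The T and NK cell markers summed to 19.6 FPKM in AT LSC and 78.3 FPKM in NBM, with 9 of 12 lower and 1 higher. Kmo, an enzyme of tryptophan breakdown, and Ly6d, a surface marker of lymphoid progenitors, were among the 12 largest negative folds named by size. They stood at 0.161 and 0.464 FPKM in AT LSC and 18.6 and 34.0 FPKM in NBM. The part of lymphoid and dendritic cells in the counts of lower genes was not tested.

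Connective tissue transcripts stood at the upper end. Dcn, the collagen-binding proteoglycan decorin, had the largest positive fold among the genes named by size, at 21.0 FPKM in AT LSC, with bounds of 7.33 and 34.6, and at 0.0282 FPKM in NBM, with bounds of 0 and 0.0636. The fold was 9.54 ± 1.02 with q listed as 0 in the authors' deposited table, and on the log2(FPKM + 1) scale the difference was 4.42, below the 5.97 of Csf2 and the 5.52 of Marco. Dcn was listed at 0.0232 FPKM in BM, 0.00675 in SPL and 0.0126 FPKM in BL LSC. The authors' deposited tables called it higher in AT LSC than in BM (q = 5.24e-12) and BL LSC (q = 5.49e-14) but not SPL LSC (q = 0.181). The level in SPL LSC was the lowest of these, so the missing call does not mark a smaller difference. Mgp, an inhibitor of tissue calcification, was listed at 8.38 FPKM in AT LSC, against under 1 estimated count in NBM. Of the stromal and fibroblast markers, 11 of 12 tested were called higher and 0 lower (6 and 0 among the 6 tested at 1 FPKM or more), and the list summed to 149 FPKM in AT LSC and 32.3 FPKM in NBM. In the other LSC the list summed to 118 FPKM in BM, 72.4 in SPL and 147 FPKM in BL. Most of the NBM sum was Gsn, an actin-severing protein of many cells, at 108 FPKM in AT LSC and 29.5 FPKM in NBM, and 8 of the 13 markers stood at or below 0.1 FPKM in NBM. The adipocyte markers summed to 54.8 FPKM in AT LSC and 7.90 FPKM in NBM, but the defining genes Adipoq and Plin1 stood at 0.0304 and 0.00696 FPKM in AT LSC. Fabp4 and Pparg, which macrophages also express, stood at 46.1 and 5.84 FPKM in AT LSC. The part of stromal cells in the secreted and matrix genes of AT LSC was not tested. Endothelial markers summed to 18.9 FPKM in AT LSC and 20.8 FPKM in NBM, mesothelial and epithelial markers to 12.1 FPKM in AT LSC and 12.2 FPKM in NBM, and eosinophil markers to 199 FPKM in AT LSC and 98.4 FPKM in NBM. The erythroid markers, of which none of 7 tested was called, summed to 92.6 FPKM in AT LSC and 25.4 FPKM in NBM.

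**Figure D5:**
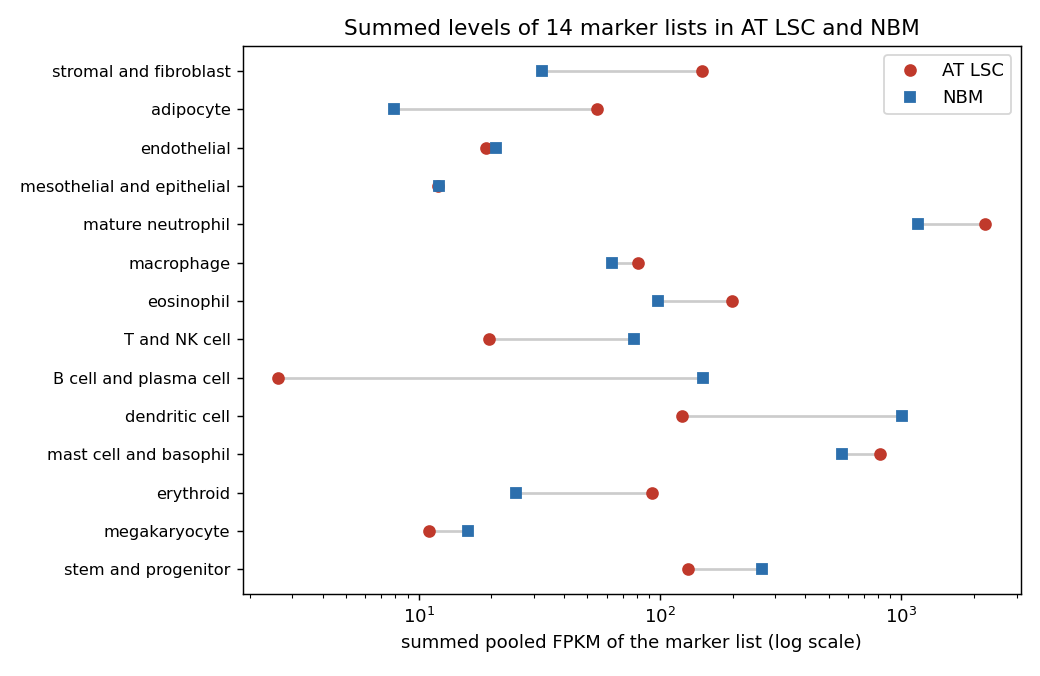
Summed pooled FPKM of 14 marker lists on a log axis, AT LSC as red circles and NBM as blue squares. The sums of B cell and plasma cell (2.62 FPKM in AT LSC and 150 FPKM in NBM), dendritic, and T and NK cell markers lie lower in AT LSC. The sums of stromal, adipocyte and mature neutrophil markers lie higher. Of the 10 tested mature neutrophil markers, 2 were called higher and 1 lower, with a median fold of 0.12.

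Further entries had large folds. Csf2, Nov, a matricellular growth regulator, and Serpinb2, a protease inhibitor of activated macrophages, were among the 12 largest positive folds named by size. Serpinb2 stood at 33.1 FPKM in AT LSC and 0.418 FPKM in NBM. Another 5 of those 12 were vomeronasal receptor genes, Vmn2r19, Vmn2r20, Vmn2r22, Vmn2r25 and Vmn2r26, at 7.40 to 14.6 FPKM in AT LSC and 0.134 to 0.282 FPKM in NBM. Near-identical copies can share reads, so their separate values are uncertain. In BL LSC, Vmn2r26 was listed at 36.9 FPKM, and the authors' deposited table called AT LSC lower than BL LSC (log2 fold -1.34, q = 0.0398). Pmp22, a membrane protein of myelin, and Trim43a stood at 7.52 and 2.78 FPKM in AT LSC and had under 2 estimated counts in NBM. At the lower end, Cox6a2, a muscle subunit of the respiratory chain, stood at 0.417 FPKM in AT LSC and 28.5 FPKM in NBM, with wide error (fold -6.10 ± 1.77, q = 0.00514, authors' deposited table).

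Among the 10 highest entries of each group, several were not called. Actb and Actg1, the cytoplasmic actins, stood at 1829 and 1387 FPKM in AT LSC and 1760 and 1282 FPKM in NBM, and neither was called (q = 0.967 and 0.925, authors' deposited table). The elongation factor gene Eef1a1 stood at 899 FPKM in AT LSC and 1667 FPKM in NBM and was not called either (fold -0.89, q = 0.199, authors' deposited table). The alarmin S100a8 stood at 1331 FPKM in AT LSC and 645 FPKM in NBM without a call (fold 1.04 ± 0.47, q = 0.102, authors' deposited table). Hspa8, the constitutive heat shock protein, and Cd74, the class II chaperone, stood at 729 and 228 FPKM in AT LSC and at 1396 and 1150 FPKM in NBM, where alone they were among the 10 highest entries. Hspa8 was not called (q = 0.162, authors' deposited table), whereas Cd74 was called lower, with a fold of -2.33 ± 0.67 (q = 0.00425, authors' deposited table).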

How the data were processed

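Total RNA of 15 samples in 5 groups of 3 was sequenced after SMARTer amplification and Nextera XT library preparation, per the labels' protocols. Reads were trimmed with Trimmomatic 0.32 and quantified with Cufflinks 2.0.2 and Cuffdiff on mm10, per the submitters' processing notes, with aligner and annotation not given in the sources used here. Per the file headers, the authors provided 1 pooled FPKM and 1 pooled estimated count per gene and group, and log2 folds with p-values and q-values of every pair of groups. The deposited q-values are the p-values after Benjamini-Hochberg adjustment over all 10 comparisons, which was checked to within 1.70e-06. Since the tables used here are pooled, the planned count test could not be run and the authors' own Cuffdiff test is reported. A gene was called at q below 0.05 where its test status was OK. The standard error is the fold divided by the test statistic. Folds were also centred on the median of tested genes, or rescaled by total or upper quartile counts, with q computed again. Calculations used Python 3.11.15, pandas 2.3.3 and scipy 1.17.1 and were tested on simulated data.

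The genes named are the 12 largest folds in each direction, up to 4 called and 2 uncalled members of each list, the 10 highest entries and a fixed set of 14 genes. Ccl22, Top2a, Phgdh, Mrc1, H2-Ab1, Pdk4, Rsad2, Il12b and the markers Cd163, Timd4, Siglech, Gsn, Adipoq, Plin1 and Pparg were picked with their values in view. Some genes that this rule names are not reported here. The members and lists were chosen with earlier results of these data known.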

Additional observations from a re-analysis of the deposited data

Results flagged for a closer look

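Only the 164 genes chosen by the naming rule and called between AT LSC and NBM were looked at one by one. For 5 of them, AT LSC and another leukemic group were called on opposite sides of NBM. The authors' deposited table of AT LSC against that group gave a called difference for them. The same held for 67 of all 2289 called genes with 1 FPKM or more in either group. The comparisons share the AT and NBM libraries. A direct fold is the difference between the folds over NBM, so its call is nearly fixed here and adds no separate support.

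Cd14 had log2 folds over NBM of 3.26 in AT LSC and -1.32 in BM LSC, and the direct fold of AT over BM LSC was 4.58, with q listed as 0 in the authors' deposited table. Slc11a1 had folds over NBM of 3.11 in AT LSC and -1.20 in BM LSC, and a direct fold of 4.31, also with q listed as 0 in the authors' deposited table. Ltb4r1, a receptor for leukotriene B4, had folds over NBM of 3.17 in AT LSC and -2.47 in SPL LSC, and a direct fold of 5.64 (q = 4.85e-08, authors' deposited table). Camp, a cathelicidin of late granules, had folds over NBM of 1.5 in AT LSC and -1.57 in BL LSC, and a direct fold of 3.07 (q = 5.33e-07, authors' deposited table). Hemgn went the other way, with folds over NBM of -1.62 in AT LSC, 1.71 in BM LSC and 1.93 in SPL LSC. Its direct folds were -3.33 over BM LSC (q = 5.26e-09) and -3.54 over SPL LSC (q = 3.54e-08) in the authors' deposited tables.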

How the results depend on the processing

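No paired analysis was possible because the deposited values are pooled over the 3 libraries of a group, and for the same reason leaving out a library and DESeq2 could not be run. Of the 109 called genes named, 104 kept their direction and call after centring, and Hemgn, Hspd1, Hspe1, Mki67 and Ndufv2 lost the call. On the log2(FPKM + 1) scale the folds of 54 of these 109 genes moved by more than their standard error and on the log2(FPKM + 0.1) scale those of 15, with none changing sign. Dcn came to 4.42 and 7.36 on these scales and Pdk4 to 0.60 and 2.55, so the size and rank of the largest folds depend on the scale where the lower level is small. B2m, which was not called, turned to 0.14 after centring and 0.11 with upper quartile scaling, and Cpt1a to 0.0161 after centring. Centring left 1650 genes higher and 876 lower, and the called members became 16 for lipid uptake, 0 for oxidative phosphorylation, 6 for DNA replication, 2 for nucleolar genes, 5 for MYC and MAX, 2 for erythroid, 5 for class I, 8 for lysosome, 4 for drug efflux, 0 for heat shock and 8 for adhesion genes. Upper quartile scaling gave 1607 higher and 930 lower, with 16 for lipid uptake, 0 for oxidative phosphorylation, 6 for DNA replication, 2 for nucleolar, 5 for MYC and MAX, 2 for erythroid, 8 for lysosome, 4 for drug efflux, 0 for heat shock and 8 for adhesion genes. Total count scaling gave 1285 lower, with 0 for oxidative phosphorylation, 5 for nucleolar, 2 for erythroid, 8 for lysosome, 3 for drug efflux and 1 for heat shock genes. A q below 0.01 left 1806 called, 682 higher and 1124 lower, with 1 for glycolysis, 0 for oxidative phosphorylation, 3 for sterol synthesis, 11 for DNA replication, 5 for cell cycle brakes, 5 for nucleolar, 4 for late granule, 0 for erythroid, 3 for lysosome, 5 for NRF2, 2 for BCL2, 3 for BCR-ABL, 1 for heat shock and 3 for adhesion genes. Adjusting within the comparison gave 2 for oxidative phosphorylation. A level of 1 FPKM in either group left 637 higher, 3 for hypoxia and 2 for chromatin writers. A level of 5 FPKM left 1218 called, 361 higher and 857 lower, with 6 for immediate early, 5 for cell cycle brakes, 3 for stem and progenitor, 0 for HOXA, 2 for myeloid fate, 8 for monocyte and macrophage, 4 for eicosanoid, 0 for erythroid, 10 for class II, 5 for NRF2, 4 for p53, 3 for BCR-ABL, 4 for stress response, 1 for hypoxia, 3 for adhesion and 1 for chromatin genes, since fewer genes were tested. For the other changes the cause was not tested.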
